A study of Salvelinus alpinus with 144 samples.

Results

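The genes described here belong to families known for proteins that write, remove or read marks on histones and DNA, or that remodel nucleosomes. They were chosen by name and are called chromatin genes for their families. Some encode proteins that act mainly on other targets or outside the nucleus, as given below. Rows of the count table that start with kdm, kmt, kat, hdac, sirt, setd, prmt, smarc, chd, brd, dnmt, tet, phf or cbx, with a digit after the prefix where the family name carries one, were kept when they held at least 10 reads over all libraries. This gave 37 genes of the 40311 with at least 10 reads. They comprise 7 setd, 5 sirt, 5 prmt, 4 hdac, 3 kdm, 3 chd, 3 brd, 2 smarc, 2 phf, 1 kmt, 1 dnmt and 1 cbx gene. No row carried a kat or tet name, and those families were not analysed here. Most rows of the table, 37251 of 42433, carry a locus number in place of a gene name, so that other copies of these genes, which are common in salmonids after their genome duplication, may stand under such numbers. Reads that fit several near-identical copies may have been dropped in counting, and the level of a named row is the level of that copy only.

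The mRNA of whole embryos of Arctic charr (Salvelinus alpinus) was sequenced, with 1 library per embryo. The parents were wild fish of 2 morphs that share an Icelandic lake, the small benthic (SB) and the planktivorous or limnetic (PL) charr. The crosses were of 4 kinds, called cross-types and named with the mother first: SB×SB and PL×PL, which are pure, and SB×PL and PL×SB, which are hybrids of either direction. Each cross-type had 3 families, and 3 siblings per family were taken at 150 and again at 200 τs, a relative age in tau-somite units that corrects for water temperature. The earlier time point marks the onset of the pharyngeal skeleton and the later one the stage at which most head cartilage has formed. All 72 embryos shared an incubation tray and none received a treatment. The 8 groups of 9 embryos are therefore 3 sets of siblings each, and differences between cross-types rest on 3 families. The wild parents limit the design in another way, since an effect of the egg and an effect of the maternal genome cannot be told apart in first-generation crosses.

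Some chromatin genes of this kind work in opposing pairs. Lysine methyltransferases are opposed by demethylases and acetyltransferases by deacetylases, while proteins with bromodomains, chromodomains or PHD fingers bind the marked histones. In vertebrate embryos, many of them are highly expressed in dividing progenitors and take part in the switch from proliferation to differentiation.

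Total counts ranged from 11969598 to 17133123 per embryo (median 15922750). Levels are given as CPM, the reads of a gene relative to the total of its library after TMM scaling. These values depend on transcript length, so they are compared between samples and not between genes. In 35 of the 37 genes, the mean level was at least 1 CPM. The exceptions were hdac11, with 203 reads over all libraries, and prmt2, with 137. A library of PL×SB at 200 τs (family 3, embryo B) had the lowest mean correlation with its group, 0.935 against a median of 0.972 over all libraries, and another of PL×SB at 150 τs (family 3, embryo C) lay farthest from its group in the chromatin genes themselves. Counts of genes called are therefore also given without these 2 libraries. Genes were called at a Benjamini-Hochberg adjusted p under 0.1 from edgeR's quasi-likelihood test over all 40311 genes, with embryos as replicates. Since siblings are not independent, the counts were repeated on the reads summed over the 3 siblings.

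The first comparison asked how the genes changed between the time points. From 150 to 200 τs, as a mean over the 4 cross-types, 27 of the 37 genes fell and 3 rose, and 7 did not pass the test. Over all genes tested, 69.3% were called, 34.3% as lower and 35% as higher, and most calls among the chromatin genes were in the lower direction. The median log2 fold change of the 37 genes was -0.26, beside 0.00 for all genes. TMM scaling holds the bulk of genes near no change, so the value for all genes is largely set by the scaling. On sibling sums, 25 fell and 3 rose (65.9% of all genes called, 31.5% lower and 34.4% higher). With family as a block, 27 fell and 3 rose (69.9%, 34.8% and 35.1%), and without the 2 libraries 26 fell and 3 rose (share of all genes not given here). The changes were modest in size. Only 3 of the 37 reached 1.5-fold, and these were setdb1, chd7 and hdac11. Of all genes, 24.8% did so. That share takes in every gene with at least 10 reads and was not matched to the level of the 37. It therefore does not show whether genes of similar level changed more. The shares of all genes called, here and below, were not matched to the level of the 37 either.

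The direction was shared by the cross-types. In separate contrasts, 21 genes fell and 2 rose in SB×SB, where 45.9% of all genes were called (22.6% lower, 23.3% higher). In SB×PL, 20 fell and 1 rose (49.5%, with 24.6% lower and 24.9% higher). In PL×SB, 20 fell and 2 rose (44.3%, with 21.1% lower and 23.2% higher), and in PL×PL 20 fell and 2 rose (49.4%, with 23.8% lower and 25.5% higher). On sibling sums, 19 fell and 1 rose in SB×SB (17.5% of all genes lower, 21.3% higher). In SB×PL these counts were 18 and 1 (19.7% and 23.5%). They were 20 and 0 in PL×SB (18.5% and 19.9%) and 18 and 1 in PL×PL (19.3% and 24.1%). With embryos as replicates, the same 14 genes were called as lower in each of the 4 cross-types (background 13.4%). None was called as higher in each (15.3%), while 1 or 2 were higher in each taken alone. The 14 called as lower were setdb1, setd2, kmt5a, prmt3, prmt7, hdac1, hdac10, sirt6, brd9, phf6, smarca4, smarcal1, chd1 and chd7. The fitted change was negative in all 4 cross-types for 27 genes and positive in all 4 for 3, where 33.1% and 33.9% of all genes did so. In 16 genes, the family mean was lower at 200 τs in all 12 families (background 15.2%), and in setd1b it was higher in all 12 (background 16.5%). No gene had all 36 later embryos below all 36 earlier ones (background 0.419%).

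**Figure D1:**
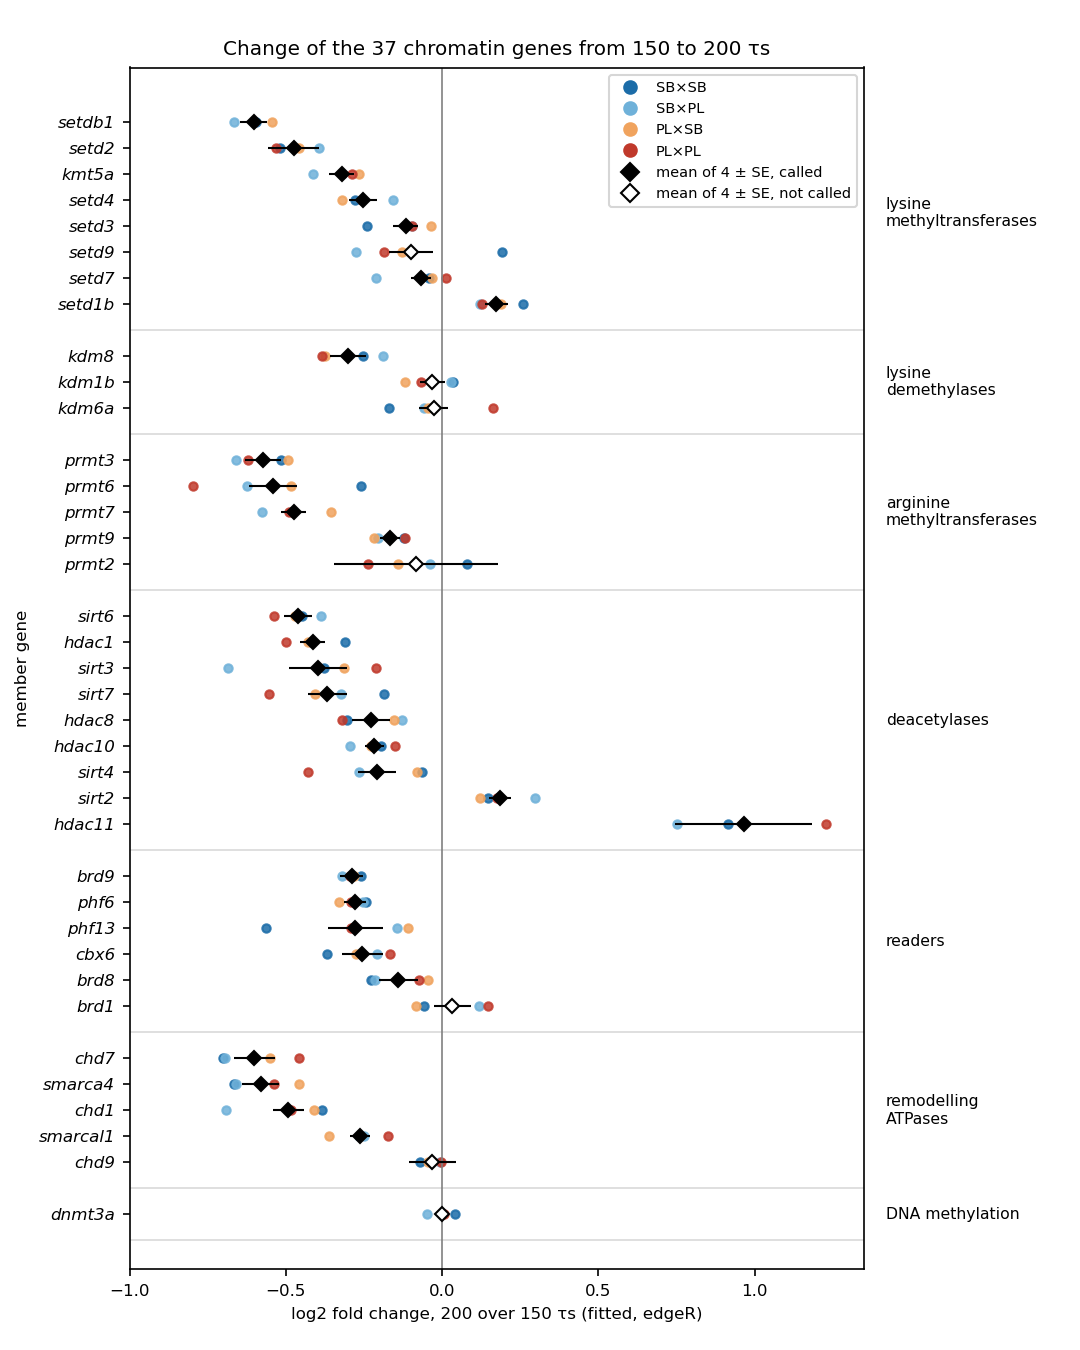
Fitted log2 fold change from 150 to 200 τs (x axis) for each of the 37 genes (y axis), grouped by role. Coloured circles are the 4 cross-types and diamonds the mean of the 4 with its SE, filled where called; 27 filled diamonds lie left of 0 and 3 lie right of it, and the circles of setdb1 lie between -0.67 and -0.54.

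Among the 8 setd and kmt genes, grouped as lysine methyltransferases, 6 fell, setd1b rose and setd9 was not called (-0.10, SE 0.07). Counts by role, here and below, stand beside 34.3% of all genes called as lower and 35% as higher. The gene setdb1 encodes an H3K9 methyltransferase that silences transposable elements and genes in embryos. Its level was 85.6 CPM in the lowest, 134 in the median and 152 in the highest of the 36 embryos at 150 τs, and 65.9, 89.4 and 113 CPM at 200 τs. Of the earlier embryos, 34 lay above every later one, so that the time points overlapped through 2 early embryos. The 4 cross-type medians lay close together, between 130 and 136 CPM at 150 τs and between 86.8 and 93.1 CPM at 200 τs. The log2 fold change was -0.60 (SE 0.04), with an edgeR adjusted p of 1.4e-20, or 2.2e-10 on sibling sums. Among the 37 genes this was the smallest p and the largest decrease.

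The other methyltransferases fell by less. The gene setd2 encodes the enzyme that trimethylates H3K36 behind the elongating polymerase. Its median fell from 28.2 CPM (12.7 to 38.6) to 21.1 CPM (6.81 to 30.9), with a log2 fold change of -0.48 (SE 0.08), and 16 of the 36 earlier embryos lay above every later one. Its lowest value at each time point came from a different family, and 6.81 CPM was that of the PL×SB library with the lowest correlation. The gene kmt5a, whose product monomethylates H4K20 and is tied to chromosome condensation, fell from a median of 19.1 to 15.2 CPM (log2 fold change -0.32, SE 0.04). Of its 36 later embryos, 23 lay below every earlier one. Smaller decreases were found for setd4 (-0.25, SE 0.04), setd3 (-0.12, SE 0.04) and setd7 (-0.07, SE 0.03). The best known product of setd3 methylates actin rather than histones, and that of setd7 monomethylates H3K4 as well as other proteins. The call of setd7 had an edgeR adjusted p of 0.057, which was 0.17 on sibling sums.

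The gene setd1b, which encodes a catalytic subunit of a COMPASS complex for H3K4 methylation, went the other way. Its levels were 24.7, 42.0 and 50.7 CPM (lowest, median and highest) at 150 τs and 39.7, 47.0 and 58.6 CPM at 200 τs. The time points overlapped widely, but as a family mean setd1b was higher at 200 τs in each family. The log2 fold change was 0.17 (SE 0.04, edgeR adjusted p 3.7e-05, or 0.0015 on sibling sums). A pair of siblings of SB×SB family 3 at 150 τs, at 24.7 and 26.1 CPM, were the lowest of all embryos, while the third sibling had 39.5 CPM.

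Of the 3 lysine demethylase genes, kdm8 fell and the other two were not called. The gene kdm8, whose product is a JmjC-domain protein needed for normal cell cycle progression in mammalian cells, fell from a median of 10.05 CPM (7.35 to 14.6) to 8.26 CPM (5.19 to 10.9). The log2 fold change was -0.30 (SE 0.06), and 13 of the 36 earlier embryos lay above every later one. For kdm6a, which encodes an H3K27 demethylase that opposes Polycomb, the medians were 25.8 and 25.9 CPM, and the log2 fold change was -0.03 (SE 0.05). For kdm1b, which encodes an H3K4 demethylase of the LSD family, they were 14.3 and 14.0 CPM, with a log2 fold change of -0.03 (SE 0.04).

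The arginine methyltransferase genes fell together, except for prmt2, which was not called (-0.08, SE 0.26). It held only 137 reads over all libraries, and its family mean was lower at 200 τs in 6 of 12 families and higher in 6. The product of prmt3 is a mostly cytoplasmic enzyme that methylates a ribosomal protein. Its level was 24.7, 30.3 and 36.3 CPM at 150 τs and 11.6, 20.2 and 30.3 CPM at 200 τs. Of the later embryos, 31 of 36 lay below every earlier one. This was a log2 fold change of -0.57 (SE 0.06, edgeR adjusted p 2.0e-14). For prmt7, the monomethylating enzyme of the family, the levels were 30.2, 36.7 and 42.4 CPM and then 18.98, 25.3 and 40.4 CPM. Again 31 of the 36 later embryos lay below all earlier ones, and the highest later value came from the PL×SB library with the lowest correlation. The log2 fold change of prmt7 was -0.48 (SE 0.04, edgeR adjusted p 3.8e-17). The gene prmt6, whose product methylates H3R2 and thereby opposes H3K4 methylation, fell by 0.54 on the log2 scale (SE 0.08), and prmt9, whose product methylates a splicing factor, fell by 0.17 (SE 0.03).

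All 9 deacetylase genes were called, 7 as lower and 2 as higher (69.3% of all genes called, 34.3% lower and 35% higher). The gene hdac1 encodes a class I deacetylase of the repressive Sin3 and NuRD complexes. Its levels were 267, 320 and 428 CPM at 150 τs and 179, 248 and 311 CPM at 200 τs. Of the 36 later embryos, 27 lay below every earlier one. On the log2 scale hdac1 fell by 0.41 (SE 0.04, edgeR adjusted p 1.3e-14). The genes hdac8, another class I deacetylase that acts on cohesin, and hdac10, a polyamine deacetylase, fell by 0.23 (SE 0.06) and 0.22 (SE 0.03) on the log2 scale. The gene hdac11 rose, with a log2 fold change of 0.96 (SE 0.22), but its median was 0.122 CPM at 150 τs and 0.246 CPM at 200 τs, which is a few reads per library, and 6 libraries held none.

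The sirtuins, deacylases that depend on NAD+, divided in the same way. For sirt6, a nuclear deacetylase tied to telomeres and DNA repair, the levels were 8.64, 14.9 and 18.1 CPM at 150 τs and 6.19, 11.1 and 13.1 CPM at 200 τs. All but 1 of the earlier embryos, 35 of 36, lay above every later one. On the log2 scale sirt6 fell by 0.46 (SE 0.05, edgeR adjusted p 1.7e-14). The nucleolar sirt7 fell from a median of 6.30 to 4.76 CPM (-0.37, SE 0.06), and of the mitochondrial members sirt3 fell from 6.38 to 4.92 CPM (-0.40, SE 0.09) and sirt4 from 4.21 to 3.76 CPM (-0.21, SE 0.06). In contrast, sirt2, a mainly cytoplasmic deacetylase of tubulin that is abundant in the myelin of mammals, rose from 12.9 CPM (10.8 to 16.1) to 15.4 CPM (11.4 to 18.1). Its log2 fold change was 0.19 (SE 0.04, edgeR adjusted p 7.1e-06), and its family mean was higher at 200 τs in 10 of 12 families.

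**Figure D2:**
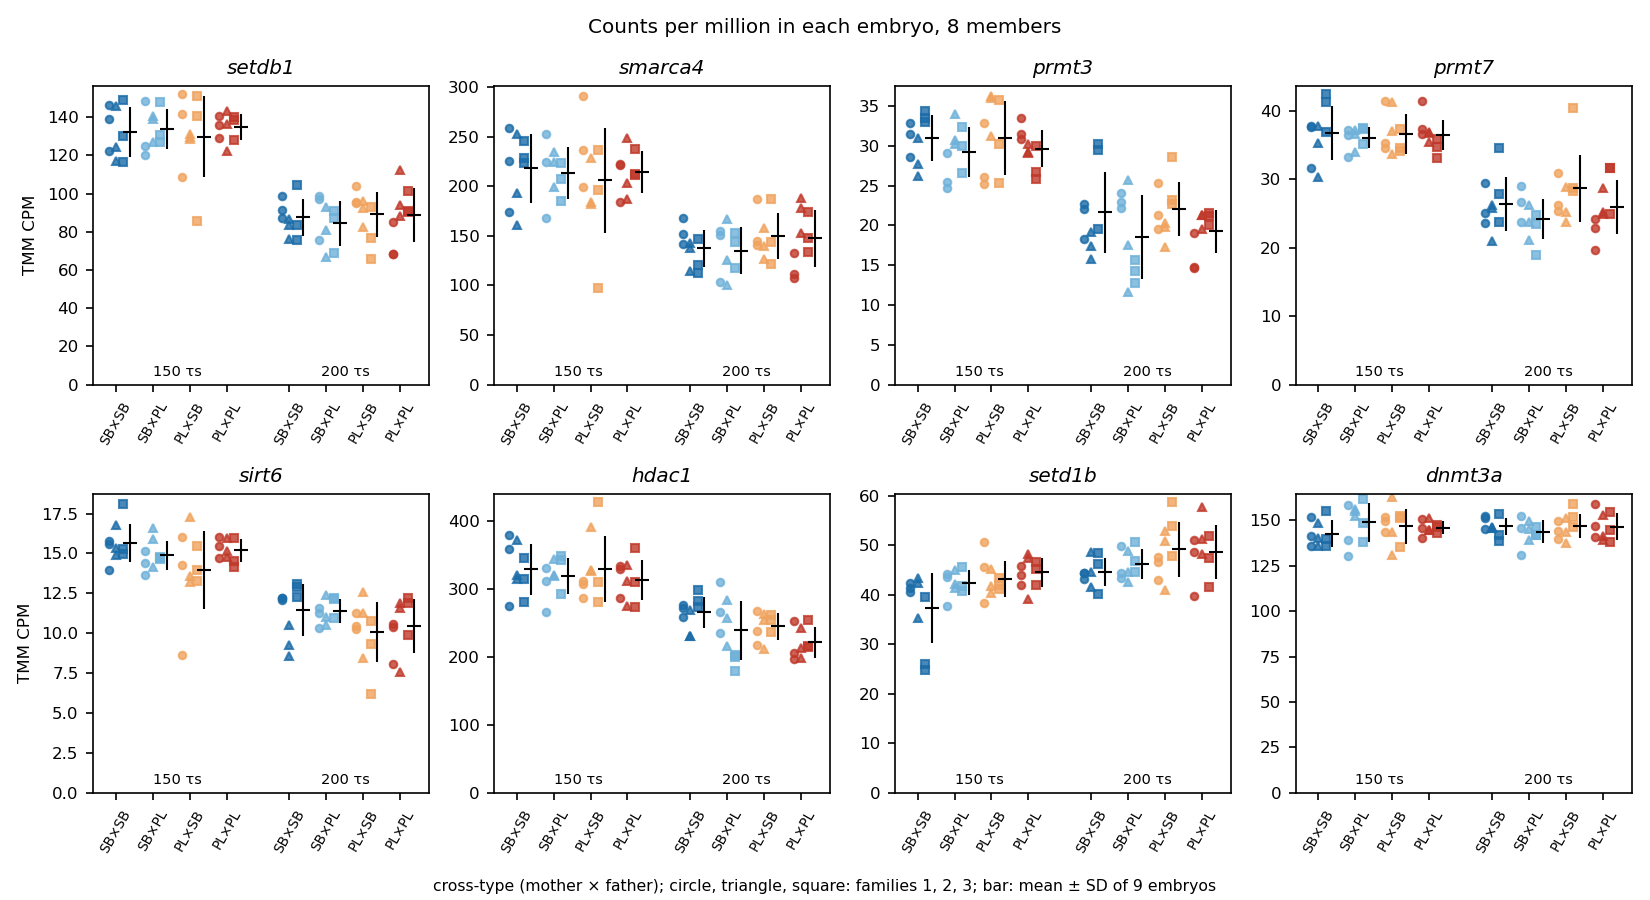
CPM (y axis, from 0) of 8 genes in every embryo, by cross-type and time point (x axis). Symbols mark families and bars give the mean ± SD of 9 embryos; setdb1, smarca4, prmt3, prmt7, sirt6 and hdac1 step down in each cross-type, setd1b is slightly higher at 200 τs and dnmt3a stays near 146 CPM.

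Of the 6 genes for readers of histone marks, 5 fell and brd1 was not called. The gene phf6, which encodes a PHD-like zinc finger protein of the nucleolus, fell from a median of 30.3 CPM (22.6 to 36.4) to 25.01 CPM (19.9 to 30.6). Its log2 fold change was -0.28 (SE 0.04), and 16 of 36 earlier embryos lay above every later one. The gene brd9, a bromodomain subunit of a SWI/SNF complex, fell by 0.29 (SE 0.04), phf13, whose product binds H3K4 methylation, by 0.28 (SE 0.09), the Polycomb chromodomain gene cbx6 by 0.26 (SE 0.07) and brd8, a subunit of the TIP60 acetyltransferase complex, by 0.14 (SE 0.06). The call of brd8 was lost on sibling sums (edgeR adjusted p 0.13). The gene brd1, a scaffold of acetyltransferase complexes, had medians of 8.82 and 8.74 CPM and a log2 fold change of 0.03 (SE 0.06).

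Among the 5 smarc and chd genes, grouped as remodelling enzymes, 4 fell. The gene smarca4 encodes the BRG1 ATPase of SWI/SNF complexes, and its levels were 97.8, 222 and 291 CPM at 150 τs and 100.2, 143 and 188 CPM at 200 τs. The lowest of the earlier embryos, the PL×SB library farthest from its group, lay below all later ones, and 27 of 36 lay above every later one. Across cross-types smarca4 fell by 0.58 on the log2 scale (SE 0.06, edgeR adjusted p 5.9e-14). The gene chd7, whose product guides neural crest development and is mutated in human CHARGE syndrome, fell from a median of 109 CPM (53.7 to 179) to 72.3 CPM (49.4 to 116). Its log2 fold change was -0.60 (SE 0.07), and 15 of the 36 earlier embryos lay above every later one. The gene chd1, which encodes a remodeller that binds H3K4 methylation at active genes, fell from 79.5 to 55.6 CPM (-0.49, SE 0.05), and smarcal1, an annealing helicase at stalled replication forks, fell from 17.0 to 14.1 CPM (-0.26, SE 0.03). The exception was chd9, another remodeller of the chromodomain helicase family, at 20.3 and 20.1 CPM (-0.03, SE 0.08).

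The single gene for DNA methylation, dnmt3a, which encodes a de novo DNA methyltransferase, did not change detectably. Its levels were 130, 146 and 163 CPM at 150 τs and 131, 146 and 159 CPM at 200 τs, and both ranges overlapped almost completely. The log2 fold change was 0.00 with an SE of 0.02, which was the smallest SE among the 37 genes.

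Other chromatin genes that the names above do not take in were read from lists of complexes. Their counts over time stand beside the same background of 34.3% lower and 35% higher over all genes. Of 7 Polycomb genes matched by name, 6 fell and 1 rose. The catalytic subunit gene ezh2 fell by 0.63 (SE 0.05) and its partner eed by 0.72 (SE 0.05) on the log2 scale, while phc3 rose by 0.86 (SE 0.12). Of 9 genes of acetylation and deacetylase complexes, 7 fell and none rose, among them the acetyltransferase gene hat1 (-0.44, SE 0.04) and the scaffold gene sin3a (-0.30, SE 0.06). Both matched genes of the SMYD methyltransferases, smyd3 and smyd4, fell. The 7 genes of remodelling complexes and histone chaperones divided, with 3 lower and 4 higher. Lower were ruvbl2 (-0.71, SE 0.06), bcl7a (-0.43, SE 0.05) and the histone chaperone gene supt16h (-0.33, SE 0.03). Higher were ss18l1 (0.78, SE 0.11) and dpf1 (0.57, SE 0.08), which encode subunits of the neuronal SWI/SNF complex in mammals, as well as ss18l2 (0.19, SE 0.05) and pbrm1 (0.16, SE 0.04).

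Markers of dividing and of differentiated cells moved over the same interval. Few of the listed genes were matched by name. These were 4 of 25 for the cell cycle, 2 of 30 for skeletal muscle and 2 of 24 for neurons. For cartilage and bone they were 3 of 20, and for blood 1 of 16. All 4 matched cell cycle genes (mcm7, rrm2, ttk and tyms) fell, and their summed level was 459 to 627 CPM at 150 τs (median 543) and 171 to 409 CPM at 200 τs (median 321), without overlap. Summed levels rose from a median of 383 to 875 CPM for 2 skeletal muscle genes, from 19.9 to 44.6 CPM for 2 neuron genes, from 59.97 to 291 CPM for 3 cartilage and bone genes and from 8.76 to 12.7 CPM for 1 blood gene. Of the cartilage and bone genes, bglap was at or near 0 throughout. The part of these shifts in the decrease of the chromatin genes was not tested, and in whole embryos fewer cells of a type and less RNA per cell cannot be told apart.

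The genes whose levels followed setdb1 most closely over the 72 libraries were LOC111982859 (r = 0.96), pola1, a subunit of the DNA polymerase that primes replication (r = 0.95), and ncoa5, a nuclear receptor coactivator (r = 0.95). Among the 37 genes, smarca4 (r = 0.89), chd1 (r = 0.85) and chd7 (r = 0.78) were closest. Within groups, with the time point and cross-type means removed, r with setdb1 was 0.82 for pola1, 0.73 for smarca4, 0.63 for chd1 and 0.43 for chd7. For sirt2, the closest gene over the 72 libraries was LOC111957649 (r = 0.76), and no chromatin gene had a positive r above 0.17. Within groups, r with sirt2 was -0.59 for smarca4, -0.55 for chd1 and 0.24 for kdm1b. These correlations are descriptions over libraries that include siblings and share the step between time points.

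The second comparison asked whether the pure crosses of the morphs differed. At 150 τs, none of the 37 genes was called between SB×SB and PL×PL by edgeR's quasi-likelihood test (0.0372% of all genes were called), and DESeq2 called none. At an unadjusted p under 0.05, where the share of all genes is not given here, there was 1, setd1b. It was lower in SB×SB, at a median of 40.5 CPM (24.7 to 43.5) against 45.3 CPM (39.2 to 48.2), and the log2 difference was -0.25 with an edgeR adjusted p of 0.62. The 2 low siblings of SB×SB family 3 lie in this comparison.

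At 200 τs, 5 genes were called between SB×SB and PL×PL, where 17.6% of all genes were called (8.7% higher and 8.85% lower in SB×SB). In SB×SB, kdm6a was lower and hdac1, prmt6, sirt4 and sirt7 were higher. On sibling sums, kdm6a alone was called, where 6.53% of all genes were. Without SB×SB family 3, kdm6a again was the only one, and without SB×SB family 2 the count was 8. It was 5 without the 2 libraries that stood apart. The share of all genes called in these fits with libraries left out is not given here. Family means of the pure crosses did not overlap in 8 of the 37 genes, where 22.4% of all genes did so. At 150 τs there were 4 such genes (dnmt3a, hdac10, setd1b and smarcal1), where 8.48% of all genes did so.

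For kdm6a, the 9 SB×SB embryos ranged from 20.2 to 25.8 CPM (median 22.3) and the 9 PL×PL embryos from 22.0 to 34.4 CPM (median 29.6). All but 1 of the PL×PL embryos, 8 of 9, lay above every SB×SB embryo, and the family means (21.5, 21.7 and 24.5 against 26.8, 30.1 and 31.0 CPM) did not overlap. The log2 difference was -0.38 (SE 0.09, edgeR adjusted p 0.0056, or 0.067 on sibling sums). The hybrids lay between, at medians of 26.0 CPM in SB×PL and 26.1 CPM in PL×SB, and neither was called against either pure cross. At 150 τs, the pure crosses had nearly equal medians of 25.1 and 25.2 CPM. In the fits by cross-type, kdm6a had a log2 fold change of -0.17 over time in SB×SB and of 0.16 in PL×PL, and the interaction of morph with time was -0.33 (SE 0.13, edgeR adjusted p 0.32).

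For hdac1, the SB×SB embryos ranged from 231 to 299 CPM (median 271) and the PL×PL embryos from 196 to 254 CPM (median 215). Of the SB×SB embryos, 7 of 9 exceeded every PL×PL embryo, and the family means did not overlap. The log2 difference was 0.26 (SE 0.08, edgeR adjusted p 0.025, or 0.14 on sibling sums). For prmt6, the ranges were 6.61 to 12.8 CPM (median 9.85) and 3.20 to 9.31 CPM (median 6.86), which overlapped, although the family means did not. The lowest family of PL×PL had a mean of 4.39 CPM against 7.63 and 7.68 CPM in the others. The log2 difference was 0.54 (SE 0.16, edgeR adjusted p 0.016), and without that family it was 0.36 (edgeR adjusted p 0.16).

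Both sirtuins were low in number of reads. For sirt7, the ranges were 4.56 to 7.47 CPM (median 6.04) in SB×SB and 2.36 to 6.80 CPM (median 3.73) in PL×PL, and the family means overlapped. The log2 difference was 0.49 (SE 0.13, edgeR adjusted p 0.0086), and it was 0.31 without PL×PL family 1 (edgeR adjusted p 0.12). For sirt4, the ranges were 3.57 to 5.34 CPM (median 3.85) and 2.21 to 4.63 CPM (median 3.13). Of the PL×PL embryos, 7 of 9 lay below every SB×SB embryo, and the log2 difference was 0.37 (SE 0.12, edgeR adjusted p 0.040). Leaving out SB×SB family 3 ended the calls of hdac1, prmt6, sirt4 and sirt7 (edgeR adjusted p 0.19, 0.15, 0.25 and 0.13), and leaving out PL×PL family 3 that of sirt4 (0.14).

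**Figure D3:**
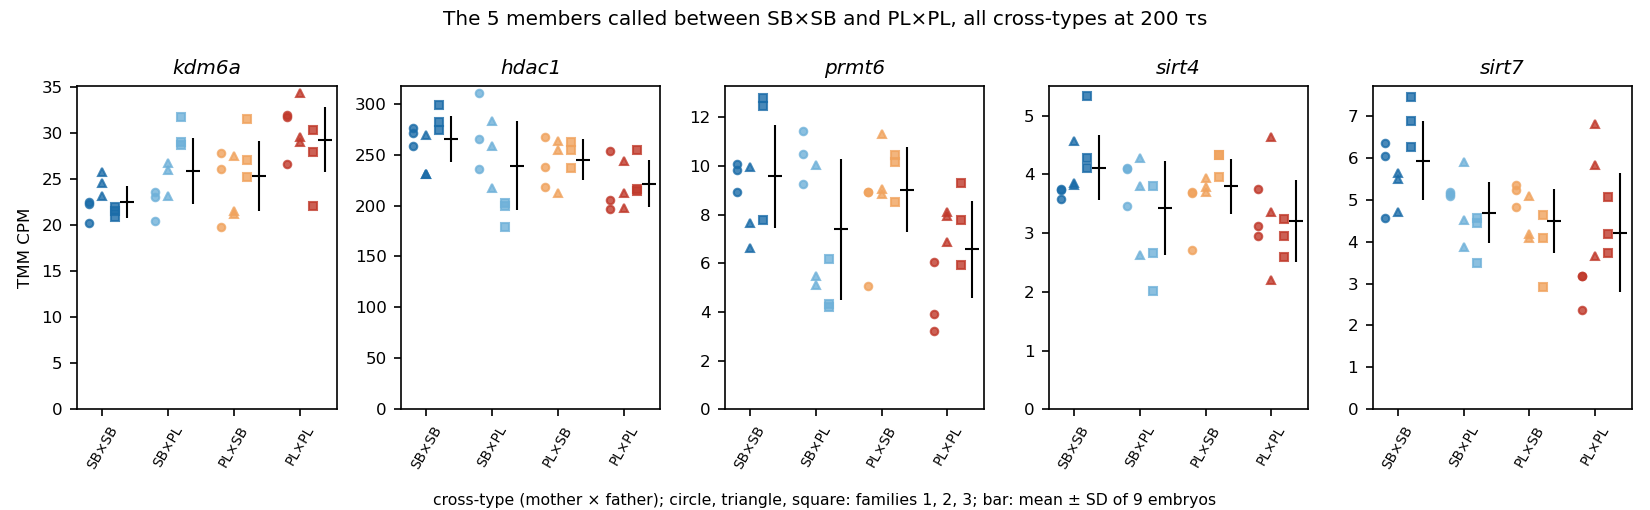
CPM (y axis, from 0) of the 5 genes called between SB×SB and PL×PL, in every embryo of the 4 cross-types (x axis) at 200 τs. Symbols mark families and bars give the mean ± SD of 9 embryos; 8 of 9 PL×PL embryos lie above all SB×SB embryos for kdm6a, and the 3 siblings of PL×PL family 1 are low for prmt6 and sirt7.

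Other chromatin genes and markers also differed between the pure crosses at 200 τs. Over all genes, 8.7% were called as higher and 8.85% as lower in SB×SB. Of the Polycomb genes, 3 of 7 were higher (pcgf6, mtf2 and pcgf3, with log2 differences of 0.30, 0.25 and 0.13) and ezh2 was at 0.02 (SE 0.09). Of the acetylation genes, hat1 was higher (0.20) and sin3a and ing3 were lower (-0.35 and -0.26), and of the remodelling genes ruvbl2 (0.40) and bcl7a (0.26) were higher. None of these calls held on sibling sums. The 2 matched muscle genes, neb and atp2a1, were lower in SB×SB. Their summed levels were 358 to 825 CPM (median 624) against 833 to 1923 CPM (median 1317), without overlap. Of the 4 cell cycle genes, rrm2 was called as higher (0.48, SE 0.16), a call that was lost on sibling sums (edgeR adjusted p 0.18), and the summed levels were 251 to 409 CPM (median 322) and 171 to 340 CPM (median 308). Their part in the differences of the 5 chromatin genes was not tested.

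The change over time was also compared directly between the pure crosses. In the interaction of morph with time, edgeR's quasi-likelihood test called none of the 37 genes (0.0347% of all genes were called), and neither did DESeq2. At an unadjusted p under 0.05, where the share of all genes is not given here, there were 4. These were kdm6a, prmt6, sirt4 and sirt7, and the largest estimate was 0.54 (SE 0.22) for prmt6, whose fitted change over time was -0.26 in SB×SB and -0.80 in PL×PL.

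The hybrids were then compared with the pure crosses and with each other. At 150 τs, none of the 37 genes was called in any of these comparisons, with backgrounds of 0.124% for SB×PL and 0.0223% for PL×SB against PL×PL, 0.159% and 0.0447% against SB×SB, and 0.102% between the hybrids. At an unadjusted p under 0.05 there were 2, 2, 1, 2 and 1, and DESeq2 called none. At 200 τs, SB×PL differed from neither pure cross by a called gene (backgrounds 0.154% and 0.0794%, with 3 and 7 genes at an unadjusted p under 0.05). PL×SB had none against PL×PL (0.38%, with 4) and none against SB×PL (1.48%, with 7). DESeq2 called 1 gene for SB×PL against PL×PL and 2 between the hybrids, and none in the other two. The backgrounds are those of the adjusted p in edgeR. Shares of all genes at an unadjusted p under 0.05 and in DESeq2 are not given here. Those counts therefore cannot be set against the backgrounds. The pure crosses are shared between these comparisons, so their counts are not independent of each other.

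Against SB×SB, 2 genes were lower in PL×SB at 200 τs, kdm1b and sirt7, where 4.3% of all genes were called (1.25% lower). For kdm1b, the levels were 7.87, 13.1 and 14.2 CPM (lowest, median and highest) in PL×SB and 13.8, 15.0 and 16.8 CPM in SB×SB, and the groups overlapped little. The log2 difference was -0.25 (SE 0.08, edgeR adjusted p 0.072). For sirt7, the levels were 2.92, 4.65 and 5.36 CPM in PL×SB against 4.56, 6.04 and 7.47 CPM. The log2 difference was -0.40 (SE 0.13, edgeR adjusted p 0.073). Neither call held on sibling sums (0.933% of all genes called) or without the 2 libraries that stood apart, 1 of which is the lowest PL×SB embryo for kdm1b (edgeR adjusted p 0.14 and 0.15 without them).

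With the 4 cross-types set out by mother and by father at 200 τs, 3 genes were called by the morph of the mother (10.4% of all genes) and 4 by that of the father (9% of all genes). Offspring of SB mothers had higher sirt7 (0.27, SE 0.09) and kdm1b (0.16, SE 0.06) and lower kdm6a (-0.17, SE 0.07) on the log2 scale. Offspring of SB fathers had higher prmt6 (0.41, SE 0.11) and sirt4 (0.26, SE 0.09) and lower brd1 (-0.29, SE 0.08) and kdm6a (-0.20, SE 0.07). On sibling sums, none of these was called (2.72% of all genes by mother and 0.0571% by father). Without SB×SB family 3 none was either (share of all genes not given here). The estimate for kdm6a was thus near -0.2 for both parents, and a difference between the parents' estimates was not tested. No chromatin gene met the criteria for a dominance class in the hybrids at 200 τs, and the 5 genes called between the pure crosses had no class. The criteria require both hybrids to follow the pure cross of 1 morph, each to follow its mother, both to lie between, or both to lie beyond the pure crosses. Of all 40311 genes, only 15 followed the mother, 19 PL×PL and 21 SB×SB. The absence is therefore not particular to the chromatin genes.

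Variability between embryos was read from the local coefficient of variation (LCV), a percentile from 0 to 100. For each group of 9 embryos, the SD of a gene relative to its mean (CV) is ranked among the 500 genes with the most similar mean. An LCV was computed only where each group's mean reached 100 normalized reads, which 29 of the chromatin genes and 17044 genes in all did. The remaining 8 did not. In the 29 genes, the mean LCV over the 8 groups had a median of 39.7, beside 49.1 for all genes. Below 25 were 6 of the 29 genes (20.7%, against 11.7% of all genes), and above 75 were 3 (10.3%, against 12.3%). These shares are given as descriptions, without a test. By group, the median over the 29 genes ran from 31.7 (SB×PL at 150 τs) to 54.5 (PL×SB at 200 τs), where that of all genes was 50.1 in each.

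The gene dnmt3a varied least. Its mean LCV was 5.61, and it was below 8 in each group except SB×PL at 150 τs, where it was 31.1. Its CV lay between 2.38% and 7.22% over the 8 groups. Next were smarcal1 (mean LCV 11.8) and prmt9 (12.8). At the other end stood setd2 (mean LCV 81.4), chd9 (78.4) and cbx6 (76.3). For setd2, the LCV was above 55 in all 8 groups, and the CV ranged from 11.8% to 33.5%. SB×SB and PL×PL differed by 20 or more in LCV, with the same sign at 150 and 200 τs, in 2 of the 29 genes (6.9%), setd7 and sirt2, against 11.4% of all genes. In both, SB×SB had the lower LCV, with 10.2 and 4.21 against 33.5 and 47.1 for setd7, and 18.4 and 16.4 against 39.1 and 41.1 for sirt2. Since siblings make up each group, the LCV includes differences between families.

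**Figure D4:**
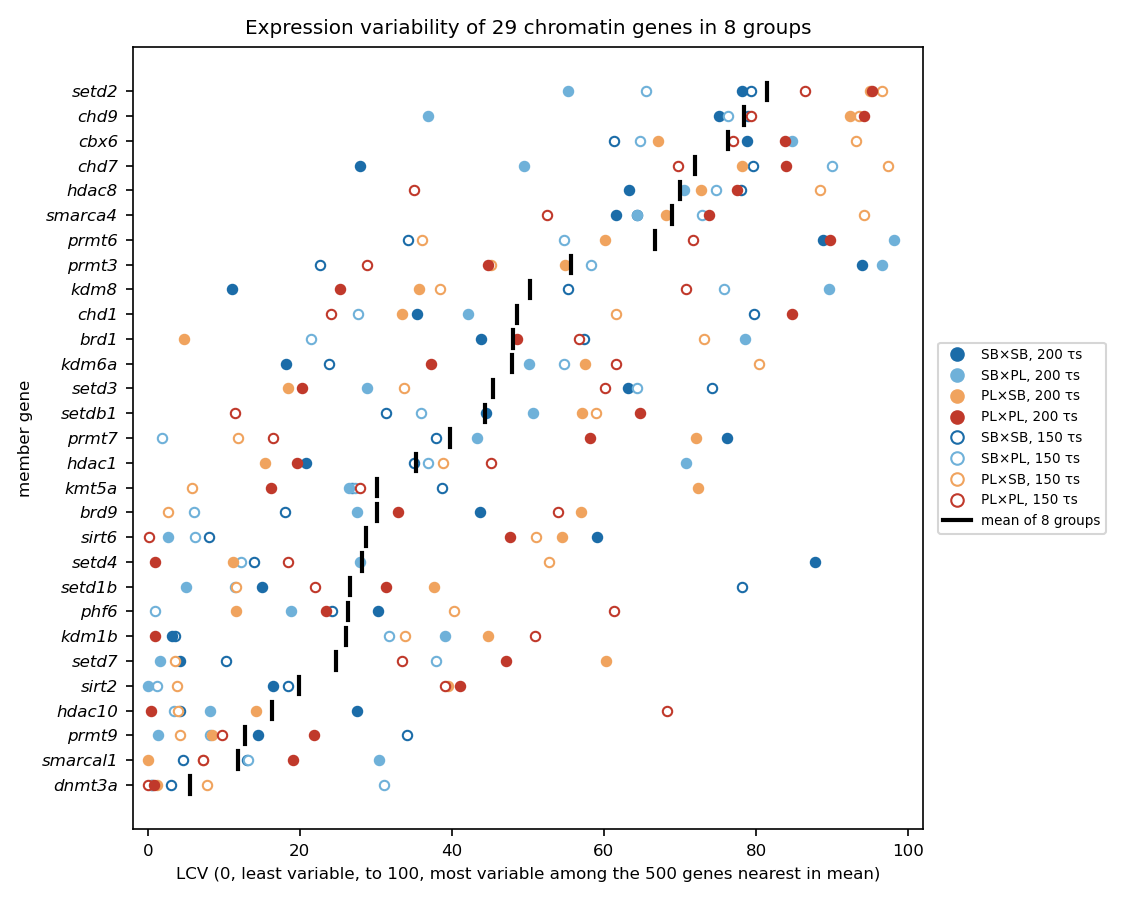
LCV (x axis, 0 to 100) of the 29 chromatin genes that have one (y axis, ordered by mean), in each of the 8 groups. Open circles are 150 τs, filled circles 200 τs and bars the mean of 8 groups; dnmt3a lies at the bottom with a mean of 5.61 and setd2 at the top with 81.4.

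The variation between embryos of a group was partly shared by these genes. After subtraction of the group means, the leading axis of the 35 genes with at least 1 CPM held 23.5% of their variance, with 20 genes on one side and 15 on the other. On the first side, cbx6, chd9, setd2, smarca4, brd1, setdb1 and chd7 had the largest loadings. On the other were kdm8, hdac1, sirt4 and sirt2. The closest pairs over the 72 embryos were chd9 with setd2 (Pearson's r = 0.87, Spearman's rho = 0.78) and chd7 with smarca4 (r = 0.85, rho = 0.82). Without the 2 most extreme embryos, r was 0.81 and 0.79. Opposed most strongly were hdac1 and kdm6a (r = -0.71, rho = -0.72). The median r over all pairs was 0.04, and these values are descriptions with siblings among the points.

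This axis was not particular to the chromatin genes. Its scores correlated with those of the leading axis of 29560 other genes at an absolute r of 0.95 over the 72 embryos. Of the genes called between the pure crosses at 200 τs, kdm6a loads on the first side of the axis and hdac1, prmt6 and sirt4 on the other. The loading of sirt7 is small and positive. These genes are part of the score, so the score is not independent of their differences between the crosses. On that axis, with group means kept, the SB×SB embryos scored -1.89 ± 1.61 (SD, n = 9) at 200 τs and the PL×PL embryos 0.56 ± 3.08 (SD, n = 9). The family means were -0.60, -1.54 and -3.52 in SB×SB and -2.187, 2.379 and 1.496 in PL×PL, which overlapped. The part of this axis in the differences between the crosses was not tested.

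**Figure D5:**
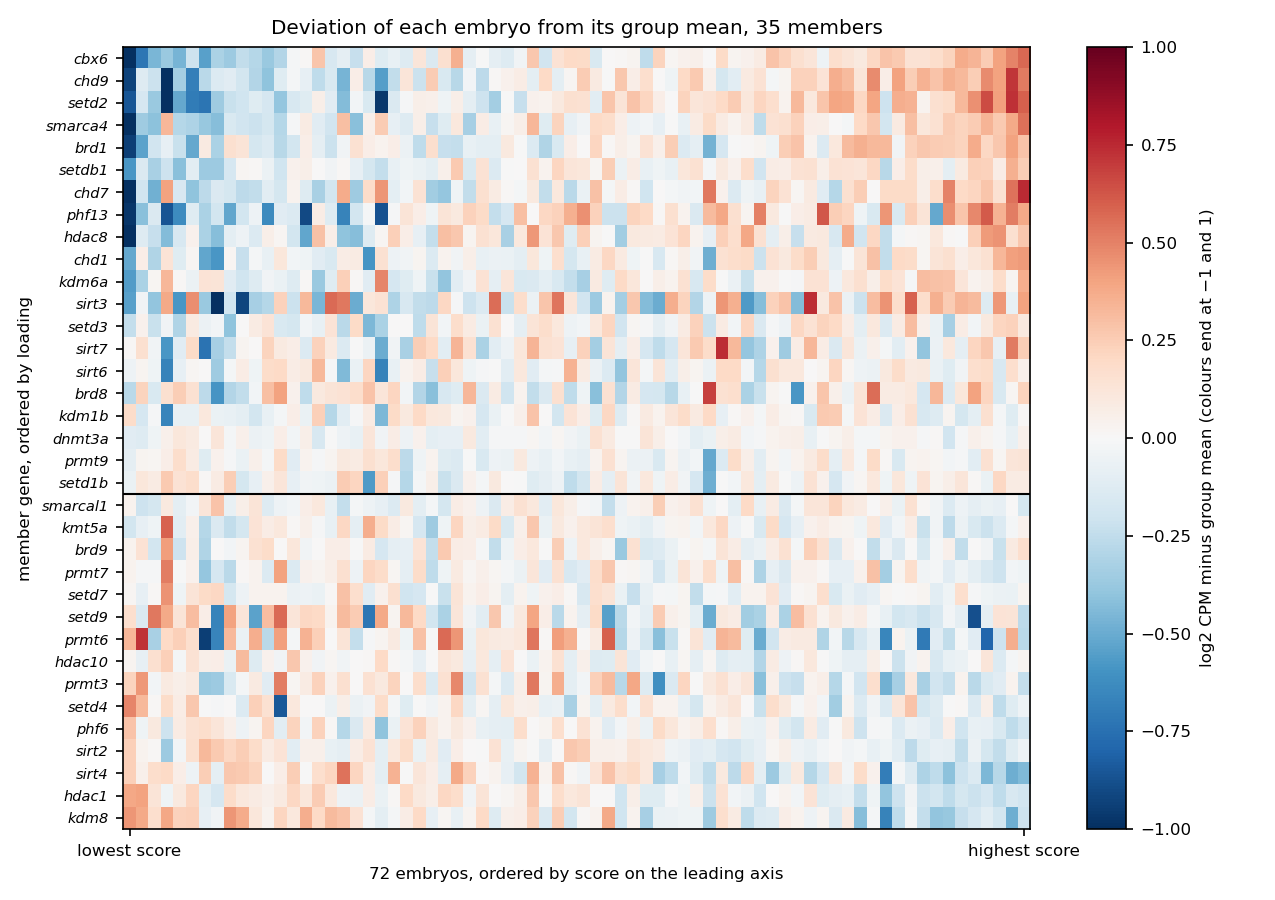
Deviation of each of the 72 embryos (x axis, ordered by score on the leading axis) from its group mean in log2 CPM (colour), for the 35 chromatin genes with at least 1 CPM (y axis, ordered by loading). The line separates 20 genes with positive from 15 with negative loadings; embryos at the left are low in cbx6, chd9 and setd2 and high in hdac1 and kdm8, and those at the right the reverse.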

How the data were processed

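The data were RNA-sequencing counts from 72 whole-embryo mRNA libraries. The authors deposited raw read counts per gene, made per the methods from reads that the sequencing provider had trimmed and filtered, by a quality check with FastQC, alignment to a Salvelinus genome with STAR and paired-end counting per gene with featureCounts. Strand use in counting and the versions were not given in the sources used here. The counting settings given were -p -B -C, with no option for strand or for reads that fit several places. The table was used as deposited, and every library was used.

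Genes with at least 10 reads over all libraries were scaled by TMM and tested by the quasi-likelihood test of edgeR (version 4.0.16, on R version 4.3.3), with 1 mean for each of 8 groups, 72 libraries in the fit and Benjamini-Hochberg adjustment at 0.1. Directions are always the first group minus the second. Depth ranged from 11969598 to 17133123 reads, and the SEs of the change over time were 0.02 to 0.26 on the log2 scale. Tests over embryos set a difference against the spread between embryos and treat siblings as independent, which they are not. The tests were therefore repeated on sums over siblings. No 2 libraries of a group held the same values (288 pairs). The labels give the family at both time points. For this reason, the family was used as a block as an alternative. Deviations from the group mean correlated at a mean r of 0.21 between the time points for the same family (-0.06 to 0.46, 9 of 12 families over 0.1). For other families of the cross-type the mean r was -0.10. Such deviations cancel over the families of a group, so the second value is bound to take the opposite sign. It is therefore not an independent comparison. Gene names were matched to a RefSeq gene list for 25 of the 37 genes, and no coordinates or sequences were used.

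The 37 genes and all gene lists were chosen with earlier results of these data known. By rule, genes were named if among the 5 largest called increases or decreases at 1 CPM or more in a main comparison, or if first by adjusted p or mean CPM in their role. The other genes of the 37 were named to account for all, after their values were seen. The lists were 4 of other chromatin genes and 5 of markers. Alternatives were RLE scaling, other count filters, DESeq2 1.42.0, only the groups compared, a threshold of 0.05, blocks by family or embryo letter, leaving out each family, and leaving out 2 libraries. On simulated counts (40198 genes), 46 of 50 genes changed by 0.6 and 46 of 50 changed by -0.6 were called over time, as were 38 of 50 changed by 0.3 and 33 of 50 changed by -0.3. Between SB×SB and PL×PL at 200 τs these counts were 30, 30, 5 and 11 of 50. The simulated embryos were drawn independently, without family effects, and few genes were changed. These rates therefore do not carry over to the real comparisons.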

Additional observations from a re-analysis of the deposited data

Results flagged for a closer look

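In each gene at 1 CPM or more, the highest and lowest embryo of every group of 9 was set against the others, and 17 of 280 groups held an embryo far from the rest of its group. A rate of 1 in 20 groups would give 14. That rate is one for independent embryos, whereas siblings make up each group and the genes share libraries. The 14 is therefore a rough guide and no test of the 17. Of the 17, 7 were high and 10 were low.

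The library of PL×SB family 3 embryo B at 200 τs, which had the lowest correlation with its group, accounts for 5. It was low in kdm1b (7.87 CPM, the others 11.9 to 14.2) and high in kmt5a (24.1 CPM, the others 12.4 to 17.2), prmt7 (40.4 CPM, the others 23.7 to 31.0), setd7 (46.0 CPM, the others 28.7 to 34.3) and setd9 (9.20 CPM, the others 6.18 to 7.69). Its sibling embryo C was low in setd3 (30.1 CPM, the others 35.7 to 40.5). In the same family at 150 τs, embryo C, the library farthest from its group on the leading axis, was low in hdac8 (10.6 CPM, the others 21.8 to 31.6) and high in sirt2 (16.1 CPM, the others 12.7 to 14.1).

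In PL×SB family 1, embryo C at 200 τs was low in prmt6 (5.05 CPM, the others 8.52 to 11.3) and sirt4 (2.72 CPM, the others 3.68 to 4.33). Embryo C of that family at 150 τs, another individual, was high in hdac10 (29.5 CPM, the others 23.4 to 26.2) and low in sirt6 (8.64 CPM, the others 13.2 to 17.3).

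In SB×SB, prmt9 was low in family 3 embryo C at 150 τs (16.1 CPM, the others 22.7 to 25.6), and in family 2 at 200 τs brd9 was low in embryo C (19.5 CPM, the others 24.3 to 28.8) and hdac10 in embryo A (17.6 CPM, the others 20.8 to 23.6). In SB×PL, hdac8 was low in family 2 embryo A at 150 τs (18.5 CPM, the others 25.01 to 31.4), and setd4 was high in family 1 embryo B at 200 τs (15.2 CPM, the others 10.7 to 12.9).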

How the results depend on the processing

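No called result changed direction under the alternatives run, and uncalled estimates near 0 (such as kdm1b over time, -0.03, or 0.03 without the 2 libraries) moved across 0. The change over time as a mean over the cross-types gave 28 to 30 calls under every setting that kept all families, and 27 to 31 when a family was left out. By cross-type, leaving out a family gave 17 to 25 calls in SB×SB, 18 to 24 in SB×PL, 19 to 22 in PL×SB and 18 to 24 in PL×PL. With family as a replicate block, 30 genes were called over time, and with the block on sibling sums 29. A block by embryo letter gave 30 over time and 5 for the pure crosses at 200 τs, and embryos with the same letter correlated at a mean r of 0.02. The letters coincide with the batch label of the samples. The authors describe batches for the small RNA libraries and state that the mRNA libraries were sequenced together.

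The comparisons at 200 τs were less stable. Sums over siblings gave 1 call for SB×SB against PL×PL, 0 for PL×SB against SB×SB, 0 by mother and 0 by father. At an adjusted p under 0.05, PL×SB against SB×SB had 0 calls, mother 0 and father 2. DESeq2 called 1 gene for SB×PL against PL×PL, 2 for SB×PL against PL×SB and 7 by father. A filter of 1 CPM in 9 libraries gave 1 call for SB×PL against PL×SB, and a fit on the groups compared alone gave 1 for PL×SB against SB×SB. Without the 2 libraries that stood apart, a choice made after seeing the data, there was 1 call for SB×PL against PL×PL and 0 for PL×SB against SB×SB.

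Leaving out a family gave 1 to 8 calls for SB×SB against PL×PL (1 without SB×SB family 3, 8 without SB×SB family 2), 0 to 3 for SB×PL against PL×PL (3 without PL×PL family 1), 0 to 7 for SB×PL against SB×SB and 0 to 5 for SB×PL against PL×SB (both highest without SB×PL family 1). It gave 0 to 3 for PL×SB against SB×SB, 0 to 6 by mother (6 without SB×PL family 3) and 0 to 9 by father (0 without SB×SB family 3, 9 without SB×SB family 2). The comparisons at 150 τs, the interaction and PL×SB against PL×PL at 200 τs stayed at 0. The share of all genes called under each alternative is not given here. Whether these shifts in count are particular to the chromatin genes therefore cannot be read from them. The median LCV ran from 35.4 to 41.6 when a family was left out and from 39.04 to 44.3 under other windows and minimum means. Among 1812 alternative values of single genes, 95 lost and 9 gained a call. In the simulation, differences of 0.3 on the log2 scale between crosses were mostly below detection. It held no family effects and few changed genes, so it cannot give the power of a design with 3 families per cross-type. The causes of the changes in calls were not tested.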
